A study of Mus musculus with 25 samples.

Results

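The 9 genes Drd1, Drd2, Adora2a, Penk, Ppp1r1b, Six3, Isl1, Rgs9 and Gpr6 mark the projection neurons of the striatum, a region that lies close beneath the medial prefrontal cortex. They were taken by symbol from the deposited count table, and all 9 were found among its 55291 gene symbols and passed the filter on low counts, as did 20971 genes in all. The libraries are polyA RNA of medial prefrontal cortex (mPFC) in 25 libraries. Wild-type littermates given AAV2/5 with mCherry alone gave 4 male and 5 female libraries. Mice of the 5xFAD line given the same mCherry virus gave 4 male and 5 female libraries, and 5xFAD mice given AAV2/5 with iβARK-mCherry gave 3 male and 4 female libraries.

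All mice were injected at 3 to 4 months of age and their tissue was taken 45 days later, so every group, the wild-type (WT) controls included, had a virus injection. The labels number the libraries of a group as replicates without saying whether each is a single mouse, so p-values measure the spread between these libraries. The series title names the question, the effect of damping astrocyte calcium signals with iβARK on transcripts. The 5xFAD line carries human transgenes with familial Alzheimer mutations under the neuronal Thy1 promoter. iβARK is a peptide derived from the kinase Grk2 that blocks signalling through Gq-coupled receptors. The promoter of the viral construct is not given in the sources used here, and no group received an inactive form of the peptide. Tissue was whole mPFC, so the levels below are averages over all cells in the piece.

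Striatal projection neurons are GABAergic cells with 2 main classes. The direct-pathway class carries the dopamine D1 receptor and sends axons to the output nuclei of the basal ganglia, and the indirect-pathway class carries the dopamine D2 receptor and the adenosine receptor of Adora2a together with enkephalin and projects to the globus pallidus. Cortical neurons use some of the same genes at lower levels, so the set holds genes with a cortical background (Drd1, Ppp1r1b, Penk, Rgs9) and genes that are nearly silent in cortex (Six3, Isl1, Gpr6).

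Per kilobase of merged exon sequence, the order of the median levels over the 25 libraries was Ppp1r1b at 28.8 CPM per kb, Penk at 9.66, Drd1 at 6.32, Rgs9 at 3.76, Drd2 at 1.38, Adora2a at 0.937, Gpr6 at 0.33, Isl1 at 0.0206 and Six3 at 0.0104. CPM are counts divided by the library size, which was scaled by TMM, a method that aligns the bulk of the genes between libraries. Library totals ran from 45234060 to 71937315 counts, and 3 counts, the limit that a count of 0 allows, correspond to 0.042 to 0.065 CPM. Six3 had 0 counts in 8 libraries and Isl1 in 5, which is a statement about this depth and not about absence. Six3 had at most 3 counts in 12 of the 25 libraries and Isl1 in 10, while the other 7 genes were detected in all of them.

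Promoter sequence is shown for 3 indirect-pathway genes whose levels moved together across the libraries, and it shows which common promoter elements each carries. Each is the stretch of 250 bases before the gene start that RefSeq gives, 5′ to 3′ on the gene's strand, on GRCm38.p6, at chr10:41072291-41072540 (minus strand) for Gpr6, chr9:49340153-49340402 (plus strand) for Drd2 and chr17:85620584-85620833 (plus strand) for Six3. The Six3 stretch precedes the RefSeq start and lies inside the GENCODE M21 gene, which begins further upstream, but overlaps none of its exons. Capitals mark every match, on either strand, to TGACG (the core of the cAMP response element), to CCAAT (the CCAAT box), to GGGCGG (the GC box) or to TATAAA (the TATA box).
Gpr6: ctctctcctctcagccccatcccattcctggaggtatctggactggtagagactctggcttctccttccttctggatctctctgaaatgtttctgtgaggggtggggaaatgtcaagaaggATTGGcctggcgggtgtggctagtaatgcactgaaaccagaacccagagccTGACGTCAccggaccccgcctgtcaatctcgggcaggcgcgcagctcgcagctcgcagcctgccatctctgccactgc
Drd2: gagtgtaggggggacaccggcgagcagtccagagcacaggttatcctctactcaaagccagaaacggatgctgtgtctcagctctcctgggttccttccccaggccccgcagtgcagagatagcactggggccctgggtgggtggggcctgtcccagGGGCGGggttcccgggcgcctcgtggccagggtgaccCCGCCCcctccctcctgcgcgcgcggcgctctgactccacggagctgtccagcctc
Six3: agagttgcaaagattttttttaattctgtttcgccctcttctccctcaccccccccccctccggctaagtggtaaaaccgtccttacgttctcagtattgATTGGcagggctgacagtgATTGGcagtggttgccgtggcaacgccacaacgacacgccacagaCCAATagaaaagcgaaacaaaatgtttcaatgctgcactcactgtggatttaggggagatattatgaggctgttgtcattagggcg

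The Gpr6 stretch holds the full palindrome TGACGTCA, in which the core motif overlaps itself on both strands, 78 bases before the start, and 1 CCAAT box on the other strand. The Drd2 stretch holds 2 GC boxes, 93 and 56 bases before the start. Six3 has 3 CCAAT boxes and none of the other motifs in these 250 bases. Among 32851 promoter stretches of the same length, 17.8% held the cAMP core, 33.8% a CCAAT box, 32.7% a GC box, 12.4% a TATA box and 1.55% (508 stretches) the full palindrome. RefSeq entries of this kind were matched for 6 of the 9 genes (Drd1, Drd2, Isl1, Six3, Rgs9 and Gpr6). A match is a description of letters, and no binding was measured here.

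The direct-pathway genes come first. Drd1 encodes the Gs- and Golf-coupled D1 receptor (chromosome 13, 54051183 to 54055705, minus strand, GRCm38, GENCODE M21). In WT-mCherry libraries it stood at 60.2, 23.3, 18.4 and 27.2 CPM in males 1 to 4 and at 26.7, 33.3, 18.4, 29.0 and 30.5 CPM in females 1 to 5. In 5xFAD-mCherry libraries it stood at 16.3, 17.6, 18.7 and 16.3 CPM in males and 25.1, 23.9, 18.1, 20.2 and 16.7 CPM in females. In 5xFAD-iβARK libraries it stood at 24.5, 37.3 and 10.3 CPM in males and 15.7, 19.7, 27.5 and 22.9 CPM in females. Male WT 1 was the highest library, followed by male iβARK 2 and female WT 2, and the WT and 5xFAD ranges overlapped in both sexes.

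Isl1 encodes a LIM homeodomain factor of developing direct-pathway neurons and of cholinergic neurons (chromosome 13, 116298281 to 116309689, minus strand). Its raw counts in WT males were 92, 13, 2 and 6, and those in WT females 49, 80, 0, 4 and 6. In 5xFAD-mCherry libraries the males had 4, 2, 0 and 0 and the females 2, 0, 4, 2 and 1. The iβARK males had 17, 39 and 4 and the iβARK females 0, 12, 22 and 10. Every 5xFAD-mCherry library thus had at most 4 counts, while the other libraries ran from 0 to 92 and overlapped them.

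Drd2 encodes the Gi-coupled D2 receptor (chromosome 9, 49340627 to 49408177, plus strand). Its level in WT libraries was 73.3, 4.59, 1.95 and 3.48 CPM in males and 8.40, 16.6, 3.52, 3.29 and 4.20 CPM in females. The 5xFAD-mCherry values were 2.89, 2.19, 3.36 and 3.58 CPM in males and 2.65, 5.28, 3.16, 2.15 and 2.54 CPM in females. The iβARK values were 4.54, 25.9 and 1.38 CPM in males and 2.12, 7.32, 12.2 and 3.79 CPM in females. Outside 6 libraries, Drd2 stayed between 1.38 and 5.28 CPM in every group.

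Adora2a encodes an adenosine receptor that raises cAMP in indirect-pathway neurons (chromosome 10, 75316877 to 75334784, plus strand). In WT libraries its CPM was 64.9, 2.32, 2.57 and 3.06 in males and 6.17, 23.6, 2.69, 3.33 and 3.58 in females. In 5xFAD-mCherry libraries it was 1.55, 1.97, 2.87 and 2.60 in males and 2.27, 2.23, 2.77, 2.04 and 2.54 in females. In iβARK libraries it reached 3.44, 22.2 and 3.93 CPM in males and 2.41, 6.49, 10.3 and 3.99 CPM in females. The 5xFAD-mCherry libraries lay at the low end of a range that the remaining WT libraries shared with them.

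Penk encodes the precursor of the enkephalins (chromosome 4, 4133531 to 4138819, minus strand), which cortical interneurons also make. In WT libraries it reached 177, 7.42, 17.4 and 10.1 CPM in males and 21.7, 108, 17.8, 15.1 and 16.9 CPM in females. The 5xFAD-mCherry libraries gave 11.7, 12.6, 17.4 and 12.2 CPM in males and 10.7, 9.19, 16.4, 18.9 and 15.8 CPM in females. The iβARK libraries gave 13.0, 55.7 and 13.6 CPM in males and 10.2, 20.8, 32.5 and 12.5 CPM in females. Male WT 1 and female WT 2 stood far above the rest of their groups, and the other WT libraries lay within or near the 5xFAD range. Penk shares 233 exonic bases with A830012C17Rik on the opposite strand, and the strand setting of the counting is not given in the sources used here.

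Gpr6, an orphan receptor with high constitutive cAMP signalling that is enriched in indirect-pathway neurons (chromosome 10, 41069977 to 41072285, minus strand), had the promoter with the full cAMP response element printed above. In WT libraries it stood at 19.7, 0.589, 0.429 and 0.538 CPM in males and 2.17, 8.37, 0.924, 0.507 and 1.37 CPM in females. In 5xFAD-mCherry libraries it stood at 0.854, 0.478, 0.908 and 0.315 CPM in males and 0.398, 0.311, 0.763, 0.648 and 0.429 CPM in females. In iβARK libraries it stood at 0.567, 7.98 and 0.475 CPM in males and 0.294, 1.83, 3.29 and 0.355 CPM in females. The same 6 libraries that were high in Drd2 were the 6 highest in Gpr6.

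Six3, a homeodomain factor needed for indirect-pathway neurons (chromosome 17, 85613608 to 85629302, plus strand), gave the widest spread. Its raw counts were 829, 15, 0 and 2 in male WT and 60, 405, 0, 2 and 22 in female WT libraries. They were 0, 0, 2 and 2 in male and 0, 4, 39, 0 and 7 in female 5xFAD-mCherry libraries. They were 0, 338 and 0 in male and 6, 97, 124 and 4 in female iβARK libraries. The 6 highest libraries were again the same, and the other 19 held 0 to 39 counts. Six3 shares 106 exonic bases with its antisense neighbour Six3os1 and 168 with Gm28528, so reads of these genes may be mixed.

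Ppp1r1b (DARPP-32, the protein phosphatase inhibitor through which dopamine acts in both classes; chromosome 11, 98348404 to 98357796, plus strand) is also made in deep cortical layers. Its CPM in WT libraries was 313, 65.6, 55.8 and 80.5 in males and 89.2, 143, 68.1, 99.3 and 82.3 in females. In 5xFAD-mCherry libraries it was 60.3, 83.0, 87.5 and 92.9 in males and 74.7, 84.4, 85.6, 83.9 and 85.8 in females. In iβARK libraries it was 71.1, 145 and 52.2 in males and 58.4, 92.8, 122 and 84.9 in females. Apart from male WT 1, male iβARK 2, female WT 2 and female iβARK 3, all libraries lay between 52.2 and 99.3 CPM. Ppp1r1b shares 460 exonic bases with 1700003D09Rik on the opposite strand.

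Rgs9, which speeds the shut-off of G protein signalling downstream of dopamine receptors (chromosome 11, 109225355 to 109298129, minus strand), had WT values of 109, 28.2, 16.7 and 23.3 CPM in males and 28.0, 46.5, 24, 26.4 and 27.3 CPM in females. Its 5xFAD-mCherry values were 18.8, 14.9, 15.9 and 16.9 CPM in males and 25.5, 24.9, 20.8, 17.0 and 18.9 CPM in females. Its iβARK values were 25.5, 58.6 and 20.0 CPM in males and 17.0, 27.7, 29.4 and 17.8 CPM in females. Rgs9 had a raised level in the same leading libraries but, like Drd1 and Ppp1r1b, over a higher baseline. The panels of member levels by library show the shared pattern.

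**Figure D1:**
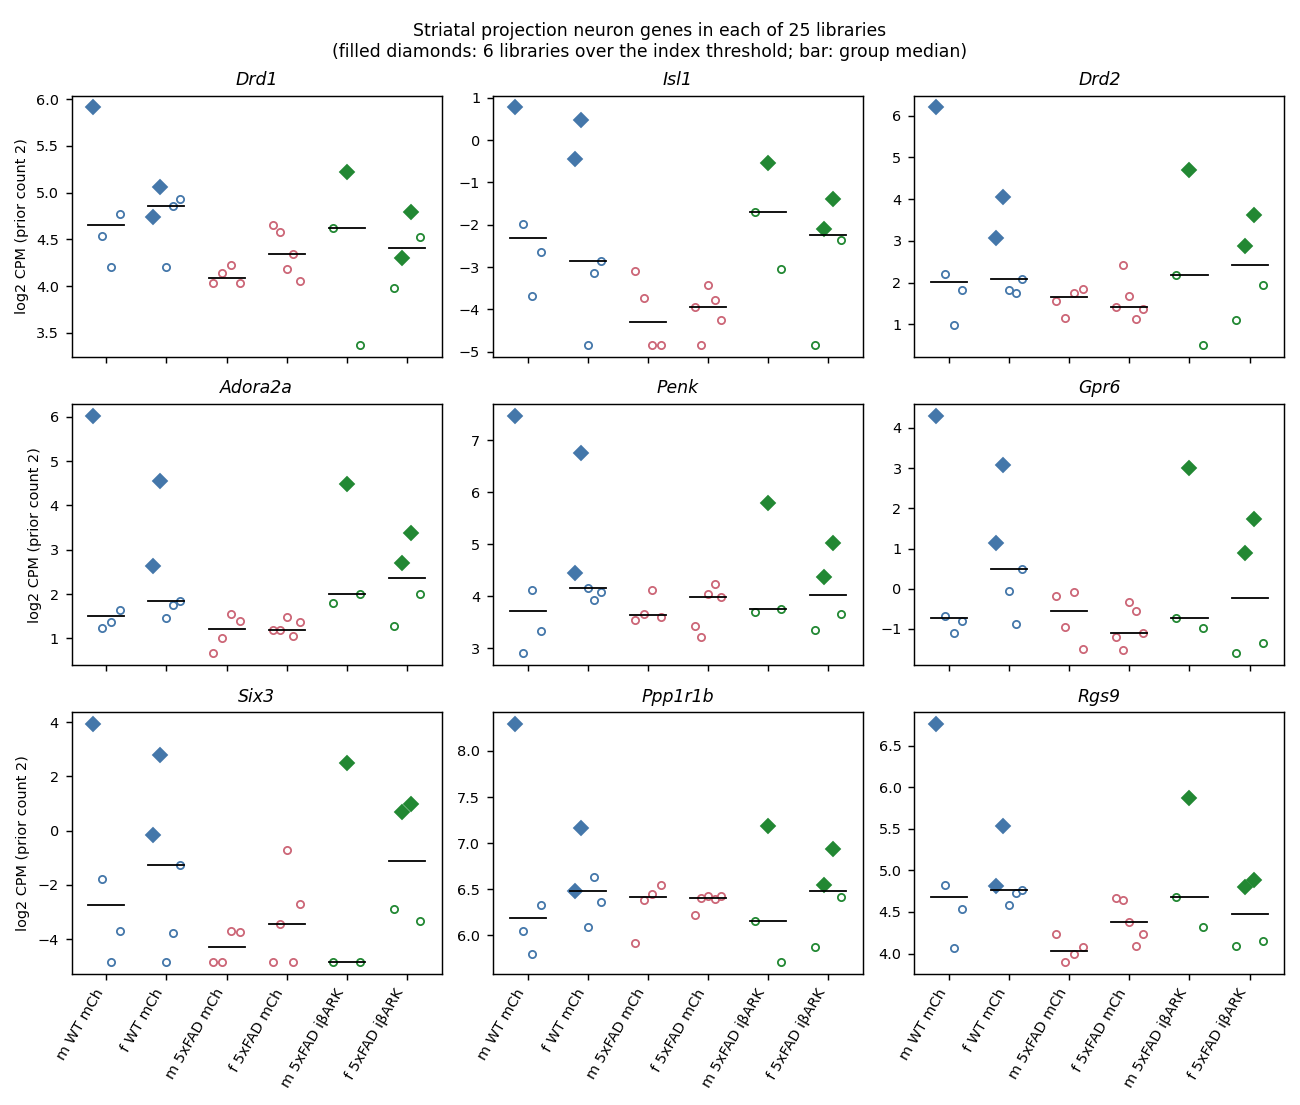
Level of each of the 9 genes in the 25 libraries, as log2 CPM with a prior count of 2, by group (m, male; f, female; mCh, mCherry); bars are group medians and filled diamonds are the 6 libraries over the index threshold of 2.69. Male WT-mCherry replicate 1 is the highest library for all 9 genes, and no 5xFAD-mCherry library is a diamond.

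The mean log2 CPM of the 9 genes (prior count of 2) served as an index of each library, with a threshold of 2.69, which is the median of 1.69 plus 1. The index passed the threshold in 6 libraries: 5.52 in male WT 1, 4.38 in female WT 2, 4.25 in male iβARK 2, 3.33 in female iβARK 3, 2.97 in female WT 1 and 2.79 in female iβARK 2. The nearest library below it was female WT 5 at 2.27, and the 19 libraries below it ran down to 1.15. Each gene has the same weight in the index, so Six3 and Isl1, with few counts, weigh as much as abundant genes. The summed CPM of the 9 was 184 in female WT 1 and 178 in female iβARK 2, against 177 in female WT 4, under the threshold. Over the median of the 19, female iβARK 2 was 1.05-fold in Drd1 and 1.13-fold in Ppp1r1b, but 2.22-fold in Drd2 and 3.61-fold in Gpr6. By group, 1 of 4 male and 2 of 5 female WT libraries passed, as did 1 of 3 male and 2 of 4 female iβARK libraries. None of the 4 male (1.19 to 1.5) and 5 female (1.29 to 1.97) 5xFAD-mCherry libraries did. The uneven spread over the groups is a count of libraries, and no test was made on it, since the genes were chosen with these levels known.

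A separate list of 24 further genes of striatal projection neurons, none of them among the 9, gave the same order at the top. Its mean log2 CPM lay 2.18 above the median of all libraries in male WT 1, 1.42 in female WT 2, 1.27 in male iβARK 2, 0.70 in female iβARK 3, 0.33 in female WT 1 and 0.27 in female iβARK 2. Pde10a, the cAMP and cGMP phosphodiesterase of these neurons, stood at 395 CPM in male WT 1, 185 in male iβARK 2 and 164 in female WT 2, against a median of 76.8 in the 19 libraries. Meis2, which many other neurons also make, moved little, with 160, 142 and 160 CPM against 127. Both lists come from the same libraries and rest on the same tissue pieces, so their likeness is a description.

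**Figure D2:**
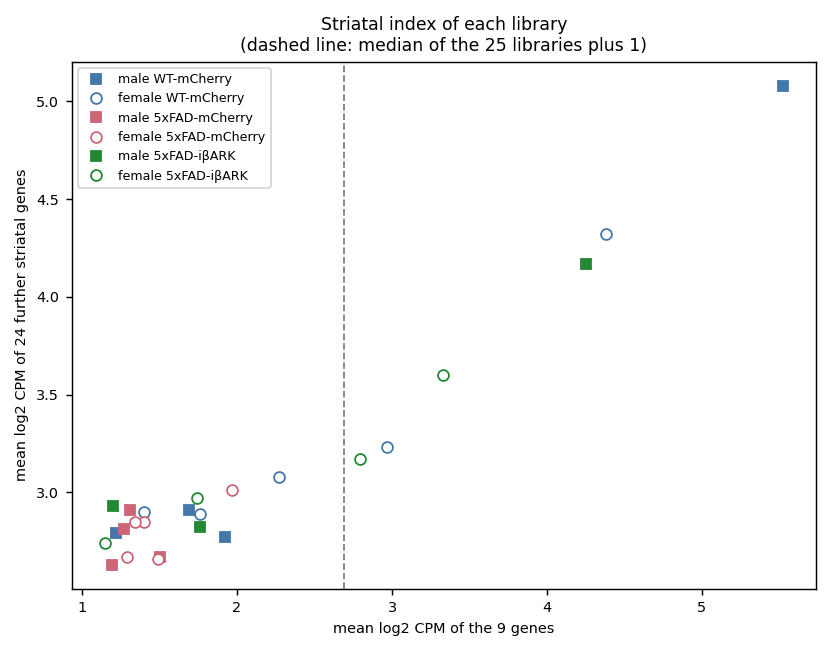
Mean log2 CPM of the 9 genes (x axis) against that of the 24 further striatal genes (y axis), 1 point per library, coloured by group; the dashed line is the threshold of 2.69. The 6 libraries right of the line run from 2.79 to 5.52 on the x axis, and the 3 highest also stand apart on the y axis.

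The composition of the excess differed between the rich libraries. Over the median of the 19 libraries, male WT 1 was 38.9-fold higher in Gpr6, 25-fold in Adora2a, 22.3-fold in Drd2, 13.7-fold in Penk, 5.44-fold in Rgs9, 3.80-fold in Ppp1r1b and 3.21-fold in Drd1. No fold is given for Six3 and Isl1, whose medians in those libraries are at or under the level of 3 counts. As a share of the excess CPM in male WT 1, the excess in male iβARK 2 was 0.26 for Penk and 0.272 for Ppp1r1b at the low end and 0.447 for Drd1 at the high end. In female WT 2 the same ratio was 0.189 for Drd2, 0.338 for Adora2a, 0.58 for Penk and 0.799 for Isl1. The 9 genes thus kept a narrower proportion between male WT 1 and male iβARK 2 than between male WT 1 and female WT 2. Tac1, the precursor of substance P in direct-pathway neurons, was higher in female WT 2 (38.0 CPM) than in male WT 1 (31.6 CPM), and so was the opioid precursor gene Pdyn (37.4 and 26.0 CPM).

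Marker lists of neighbouring tissues were read beside these genes. The 14 cortical glutamatergic markers were detected in all 25 libraries, and their summed level was lowest in male WT 1 (2880 CPM) among sums of up to 4530 CPM. Male iβARK 2 had 3240 CPM of them and male iβARK 3, under the threshold, 3250 CPM. The 12 oligodendrocyte markers summed to 12900 CPM in male WT 1 and 11800 CPM in male iβARK 2 but to 2810 CPM, the lowest of all libraries, in female WT 2. In male WT 2, under the threshold, they summed to 10600 CPM. Septal markers were highest in female WT 2 (94.6 CPM) and olfactory bulb markers as well (9.64 CPM). Cholinergic interneuron markers were highest in male WT 1 (20.1 CPM) and markers of the subventricular zone and neuroblasts in male iβARK 2 (165 CPM). Markers of choroid plexus and ependyma were highest in male WT 2 (36.2 CPM), a library with an index of 1.92. The leading libraries thus differ in the other markers they carry, and the part of these tissues in any result below was not tested.

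**Figure D3:**
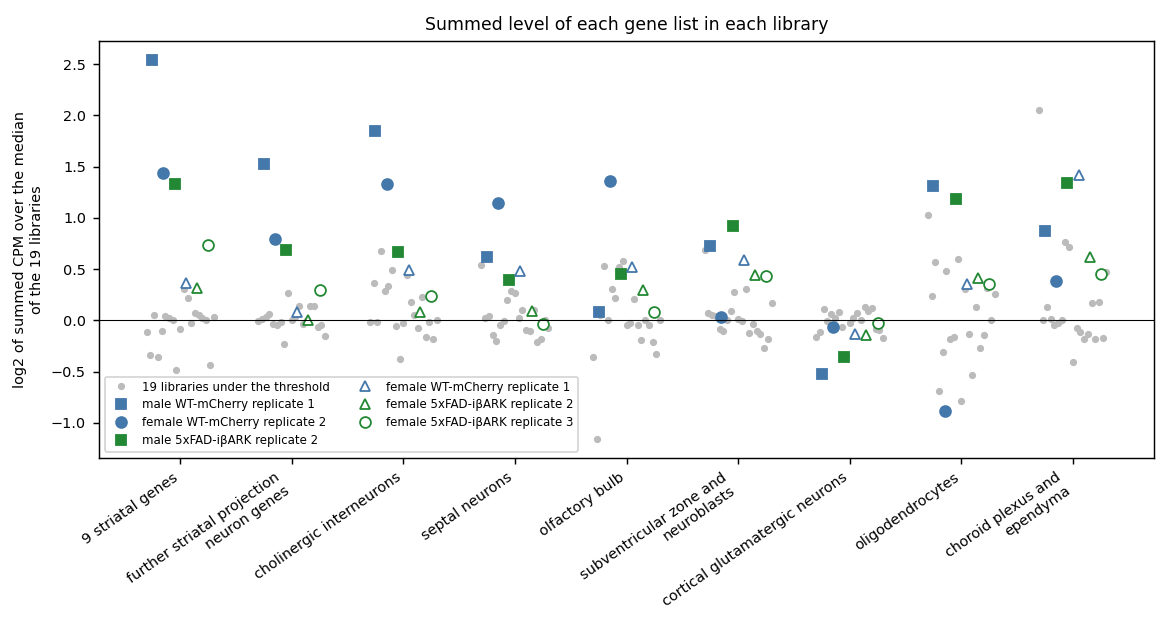
Summed CPM of each gene list in each library, as the log2 ratio to the median of the 19 libraries under the index threshold; grey points are those 19 and coloured symbols are the 6 above it. Male WT-mCherry replicate 1 is highest for both striatal lists and for cholinergic interneurons and lowest for cortical neurons, and female WT-mCherry replicate 2 is lowest for oligodendrocytes.

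Does the level of these genes differ between 5xFAD and WT mice? With sexes averaged (9 against 9 libraries), 8 of 9 genes were lower in 5xFAD-mCherry by edgeR's quasi-likelihood test with Benjamini-Hochberg adjustment over all genes, where 4.01% of genes tested were called lower and 9.99% in either direction. The log2 difference was -0.66 ± 0.21 (SE) for Drd1 (edgeR adjusted p = 0.045) and -3.94 ± 0.91 for Isl1 (0.0061). Among the indirect-pathway genes it was -1.99 ± 0.61 for Drd2 (0.037), -2.38 ± 0.61 for Adora2a (0.013), -1.66 ± 0.53 for Penk (0.045), -2.73 ± 0.77 for Gpr6 (0.026) and -5.41 ± 1.51 for Six3 (0.024). The Rgs9 difference was -0.96 ± 0.27 (0.026), and Ppp1r1b did not pass at -0.44 ± 0.26 (0.32). The median over the 9 was -1.99, beside -0.01 over all genes tested. The 9 genes were chosen with their levels in these libraries known. The 8 of 9 and this median are thus a description and cannot be read against the values over all genes. The index was over the threshold in male WT 1 (5.52), female WT 2 (4.38) and female WT 1 (2.97). It ran from 1.22 to 2.27 in the other WT libraries and from 1.19 to 1.97 in 5xFAD-mCherry. In bulk tissue, fewer cells of a type, less RNA per cell and less striatal tissue in the piece taken cannot be told apart.

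Those calls depended on single libraries of both groups. Without male WT 1 alone, Isl1 was called (-2.96, edgeR adjusted p = 0.037) and the other 8 were not, with Ppp1r1b at 0.02, Drd1 at -0.41 (0.16), Adora2a at -0.99 (0.16) and Rgs9 at -0.48 (0.11). Isl1 counts were low, at most 4 in each 5xFAD-mCherry library. Among the remaining WT libraries they were 49 and 80 in female WT 1 and 2, both over the threshold, and 0 to 13 in the others. Leaving out female WT 2 alone left 3 called, with differences from -4.27 to -0.35. Leaving out male 5xFAD-mCherry 4 left 3 (-5.66 to -0.48) and leaving out male 5xFAD-mCherry 2 left 2 (-5.21 to -0.45), close to the range of -5.41 to -0.44 with all libraries. Leaving out male 5xFAD-mCherry 1 or 3, female WT 1, or female 5xFAD-mCherry 3, 4 or 5 left 5, and each remaining library left 6 to 8. With all libraries the adjusted p of 7 of the 8 genes lay between 0.013 and 0.045.

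Without the 6 libraries over the threshold, 0 of the 9 genes were called by edgeR, where 1.1% of all genes were called lower, and 3 had an unadjusted p under 0.05. The differences then were -0.36 ± 0.16 for Drd1, -0.18 ± 0.25 for Drd2, -0.33 ± 0.15 for Adora2a, 0.00 ± 0.17 for Penk and 0.14 ± 0.12 for Ppp1r1b. They were -1.06 ± 1.05 for Six3, -1.53 ± 0.82 for Isl1, -0.36 ± 0.11 for Rgs9 (edgeR adjusted p = 0.064) and -0.29 ± 0.28 for Gpr6. Without only the 3 highest libraries, a setting chosen after seeing the data, 0 were called (2.65% of all genes lower) and 4 had an unadjusted p under 0.05. With the 24-gene list as a covariate 0 were called (1.49% of all genes lower) and 2 had an unadjusted p under 0.05. The libraries were left out by the level of these same 9 genes, and fewer libraries were tested, so smaller differences and fewer calls are partly built in. The 24-gene mean follows the 9 genes across libraries, with a Spearman rho of 0.50 (Ppp1r1b) to 0.79 (Adora2a). With it as a covariate, smaller differences and fewer calls among the 9 are thus partly built in as well, in every comparison. The DESeq2 Wald test on all 25 libraries called 7 of the 9 and gave no adjusted p for Penk.

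By sex, 2 of 9 genes passed in males, Adora2a at -3.02 ± 0.93 (edgeR adjusted p = 0.036) and Rgs9 at -1.41 ± 0.41 (0.028), where 4.5% of all genes were called lower. DESeq2 called 7 in males. In females 0 passed by edgeR, where 0.606% of all genes were called lower, 3 had an unadjusted p under 0.05 and DESeq2 called 1. The female differences ran from -3.87 ± 1.19 for Isl1 (edgeR adjusted p = 0.069) to -0.22 ± 0.35 for Ppp1r1b. The test of the difference between the sexes called 0 of the 9 by edgeR and 0 by DESeq2, 0 had an unadjusted p under 0.05, and 2.41% of all genes were called. The female minus male differences ran from 0.14 ± 2.08 for Isl1 to 4.06 ± 3.29 for Six3.

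Does iβARK change these genes in 5xFAD mice? This comparison shares the 9 5xFAD-mCherry libraries with the one above, so opposite signs in the pair follow in part from the shared libraries. With sexes averaged (7 against 9 libraries), all 9 differences were above 0, from 0.13 ± 0.28 for Ppp1r1b to 4.49 ± 1.57 for Six3, and 0 were called by edgeR, where 3.01% of all genes were called higher. At an unadjusted p under 0.05 there were 5, and DESeq2 called 1. Isl1 gave 2.97 ± 0.96 (edgeR adjusted p = 0.068), Adora2a 1.71 ± 0.63 (0.10), Gpr6 1.87 ± 0.80 (0.16), Drd2 1.41 ± 0.63 (0.18) and Rgs9 0.58 ± 0.29 (0.23).

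Without the 3 highest libraries Adora2a was higher in iβARK by 1.02 ± 0.24 (edgeR adjusted p = 0.023), the single call among the 9. In that fit 2.12% of all genes were called higher. Female iβARK 2 and 3, each over the threshold, remained in it, with Adora2a at 6.49 and 10.3 CPM. No 5xFAD-mCherry library was over the threshold. Without all 6 the Adora2a difference was 0.60 ± 0.17 (edgeR adjusted p = 0.057). With the 24-gene list as a covariate the Adora2a difference was 0.44 ± 0.15 (edgeR adjusted p = 0.10), 0 of the 9 were called (1.92% of all genes higher) and 3 had an unadjusted p under 0.05. Without the 6 libraries 0 were called (2.7% of all genes higher), 2 had an unadjusted p under 0.05, and 6 of the 9 differences were below 0, among them Drd2 at -0.02 ± 0.29, Penk at -0.14 ± 0.20 and Gpr6 at -0.44 ± 0.33. Six3 then stood at -2.08 ± 1.92, a fitted value with 0 counts in both remaining male iβARK libraries that is no bound. Isl1 stayed above 0 at 2.01 ± 0.87 (edgeR adjusted p = 0.25).

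In male mice 0 of the 9 were called by edgeR for iβARK, where 2.77% of all genes were called, 4 had an unadjusted p under 0.05 and DESeq2 called 0. In female mice 0 were called by edgeR, where 0.41% of all genes were called, 0 had an unadjusted p under 0.05 and DESeq2 called 0. The test of the sex difference in the iβARK effect called 0 by edgeR and 0 by DESeq2, where 0.00477% of all genes (1 gene) were called, and 0 had an unadjusted p under 0.05. Its values ran from -3.85 ± 3.43 for Six3 to -0.03 ± 0.56 for Ppp1r1b.

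Against WT-mCherry (7 against 9 libraries), iβARK libraries had all 9 differences below 0, from -0.97 ± 0.77 for Isl1 to -0.32 ± 0.28 for Ppp1r1b. None were called by edgeR, where 8.53% of all genes were, 0 had an unadjusted p under 0.05 and DESeq2 called 0. Both groups hold 3 libraries over the threshold. Without male WT 1 the values of Drd2 (0.74), Adora2a (0.73) and Gpr6 (0.82) were above 0, and without male iβARK 2 they were -1.48, -1.37 and -2.11. The sign of these 3 genes thus turned when male WT 1 was left out. Male iβARK 2 was the highest iβARK library for each of them. Leaving it out lowers differences that were already below 0, so that fit could not turn the sign.

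**Figure D4:**
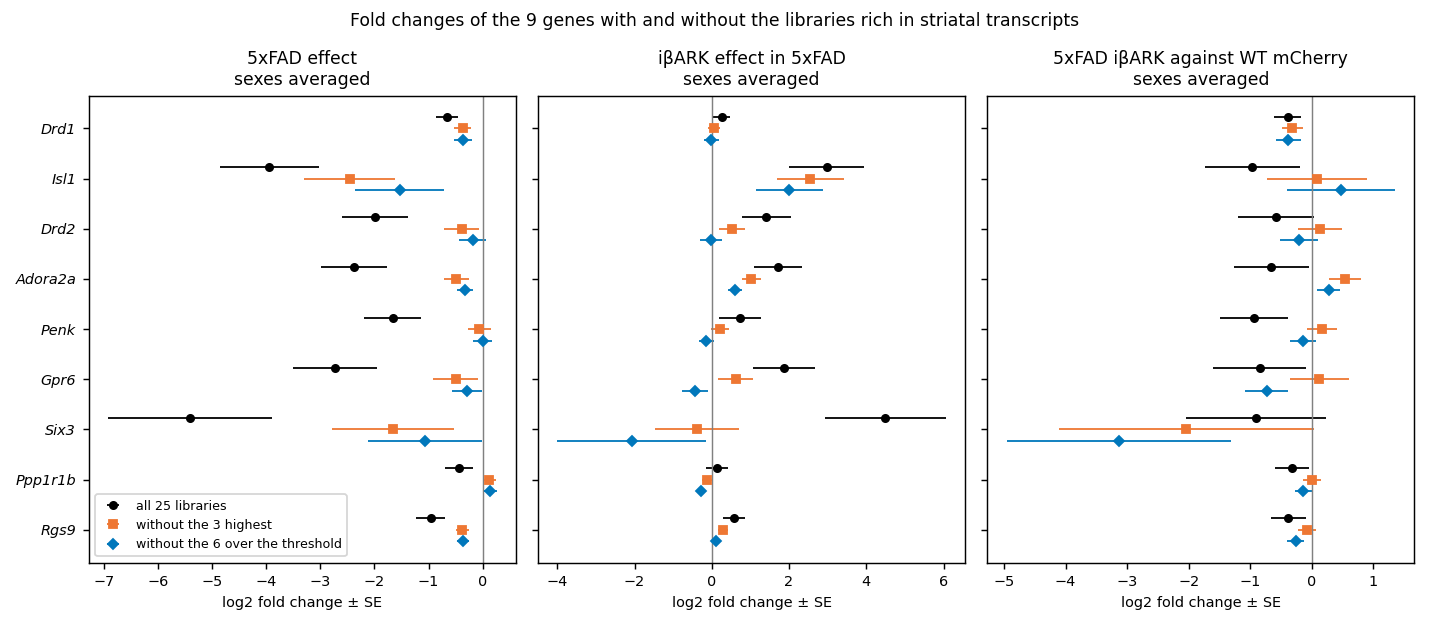
Log2 fold change (points) ± SE (lines) of each of the 9 genes in the 3 comparisons averaged over sexes, with all 25 libraries (black), without the 3 highest (orange) and without the 6 over the threshold (blue). In the 5xFAD panel the 9 black points lie between -5.41 and -0.44 and the blue points between -1.53 and 0.14.

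The other lists were tested gene by gene in the same fits. Of 24 further striatal genes, 5 were lower in 5xFAD with sexes averaged (edgeR), 0 were higher and 17 had an unadjusted p under 0.05, with a median of -0.60, beside 4.01% of all genes called lower. DESeq2 called 9 of the 24. The 5 were Gpr149, an orphan receptor, at -1.39 ± 0.28, Syndig1l, a synaptic membrane protein, at -1.79 ± 0.51, Cd4 at -2.08 ± 0.64, Sh3rf2 at -4.13 ± 1.08 and Drd3, the D3 receptor, at -4.59 ± 1.43. Drd3 had 0 counts in 12 libraries and a median of 0.0284 CPM, under the level of 3 counts. Its highest value was 1.09 CPM, in female WT 2. Sh3rf2 had 0 counts in 2 libraries and a median of 0.161 CPM, with 14.1 CPM in male WT 1. Low counts thus limit the fold changes of Drd3 and Sh3rf2, and the highest library of each was over the threshold. The most abundant members did not pass, with Adcy5, an adenylyl cyclase, at -0.41 ± 0.14, Gng7, a G protein subunit, at -0.70 ± 0.23, Gnal, the Golf subunit, at -0.24 ± 0.08, Pde10a at -0.65 ± 0.27, Pde1b at -0.31 ± 0.17 and Meis2, a homeodomain factor, at -0.03 ± 0.08. Without the 6 libraries 1 of 23 tested was lower, Gpr149 at -1.01 ± 0.23 (edgeR adjusted p = 0.01), beside 1.1% of all genes, and the median was -0.11. For iβARK, Cd4 was the 1 gene higher, at 2.83 ± 0.66 with all libraries and 2.83 ± 0.48 without the 6, beside 3.01% and 2.7% of all genes. DESeq2 called 3 of the 24 with all libraries. T cells also make Cd4.

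In the same 5xFAD comparison with edgeR, 1 of 5 tested cholinergic markers was lower (Slc5a7, the choline transporter, -1.30 ± 0.35), as were 2 of 7 septal markers (Zic1 at -0.98 ± 0.19 and Zic4 at -1.09 ± 0.25). Of 8 subventricular zone markers, 2 were lower (Dcx at -0.55 ± 0.10 and Igfbpl1 at -2.71 ± 0.75), and of 9 tested choroid plexus and ependyma markers 2 were lower (Ccdc153 at -6.63 ± 1.57 and Tmem212 at -6.21 ± 1.71). Ccdc153 had 0 counts in 7 libraries and Tmem212 in 17, which limits their fold changes. Of 14 cortical markers Neurod2 was higher (0.24 ± 0.07) and Rorb lower (-0.24 ± 0.08), with a list median of 0.08. Over all genes 4.01% were lower and 5.98% higher, and DESeq2 called 1 cholinergic, 3 septal, 2 subventricular zone, 2 choroid plexus and ependyma and 3 cortical markers. The 12 oligodendrocyte markers were all below 0 (-0.64 to -0.33), with 0 called by edgeR, 7 at an unadjusted p under 0.05 and 1 called by DESeq2, and 6 olfactory bulb markers had 0 called by edgeR, 0 at an unadjusted p under 0.05 and 0 by DESeq2. Without the 6 libraries Zic1 (-0.56 ± 0.14) and Dcx (-0.50 ± 0.10) passed still, and the oligodendrocyte median was -0.40. Markers of several tissues beside the striatum moved with the same groups, and their part in the 9 genes' differences was not tested.

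For iβARK with sexes averaged (edgeR), 2 of 8 subventricular zone markers were higher (Igfbpl1 at 3.60 ± 0.78 and Top2a at 1.65 ± 0.46) and 2 of 14 cortical markers lower (Slc17a7 at -0.24 ± 0.07 and Cck at -0.33 ± 0.10), beside 3.01% of all genes higher and 2.51% lower. DESeq2 called 3 markers of each of these 2 lists. The 12 oligodendrocyte markers lay between 0.45 and 0.65, with 0 called by edgeR, 12 at an unadjusted p under 0.05 and 1 called by DESeq2. No cholinergic, septal, olfactory bulb or choroid plexus and ependyma marker passed edgeR, with 1, 2, 2 and 4 of them at an unadjusted p under 0.05, and DESeq2 called 0, 0, 0 and 3.

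How does the presence of these libraries bear on the genes called in each comparison? For 5xFAD with sexes averaged, edgeR called 2095 genes with all libraries and 1090 without the 6, of which 1029 were shared. Lower calls went from 840 to 231 and higher calls from 1255 to 859. Without only the 3 highest, 1680 were called (1498 shared), and with the covariate 1197 (1144 shared). Males gave 2413 calls with all and 1423 without the 6. Females gave 907 and 549. In males, leaving out 1 library under the threshold also lowered the count, to 1059 without male WT 2 (index 1.92) and to 1560, 1524 and 1284 without male 5xFAD-mCherry 2, 3 and 4. Fewer libraries also lower the power of the test, so a lost call is not a gene that stopped differing.

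The sex difference in the 5xFAD effect had 506 calls with all libraries, 1 without the 6 and 0 without the 3 highest, by edgeR. With the covariate, which keeps all 25 libraries, 480 were called and 457 of them were shared. Leaving out 1 library moved this count by over 1.5 times in 13 of 18 cases, most of them libraries under the threshold. It was 293, 15, 265 and 1148 without male WT 1, 2, 3 and 4, and 189, 68 and 104 without male 5xFAD-mCherry 2, 3 and 4. It was 127, 104 and 214 without female WT 2, 3 and 4, and 148, 47 and 303 without female 5xFAD-mCherry 1, 2 and 3.

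For iβARK with sexes averaged, 1157 were called with all, 648 without the 6 and 581 without the 3 highest, with 491 and 523 shared. Its lower calls went from 526 to 79 without the 6 and its higher calls from 631 to 569. Without only the 3 highest there were 124 lower and 457 higher calls. With the covariate 662 were called (636 shared), 260 lower and 402 higher. Without a single library the count was 537 for male iβARK 2, 2206 for male iβARK 1, 509 for female iβARK 4, 709 and 661 for male 5xFAD-mCherry 1 and 2, and 744 and 640 for female 5xFAD-mCherry 3 and 4. With DESeq2 size factors in place of TMM, the split with all libraries was 671 higher and 349 lower. In iβARK females the count went the other way, from 86 to 219 without the 6, with 81 shared. For iβARK against WT, 1788 were called, 1638 without the 6, and 1337 were shared. Its lower calls went from 419 to 179 and its higher calls from 1369 to 1459 without the 6. Without only the 3 highest there were 329 lower and 1477 higher calls. With the covariate, which keeps all 25 libraries, there were 443 lower and 1397 higher calls, so lower calls did not fall in that setting.

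**Figure D5:**
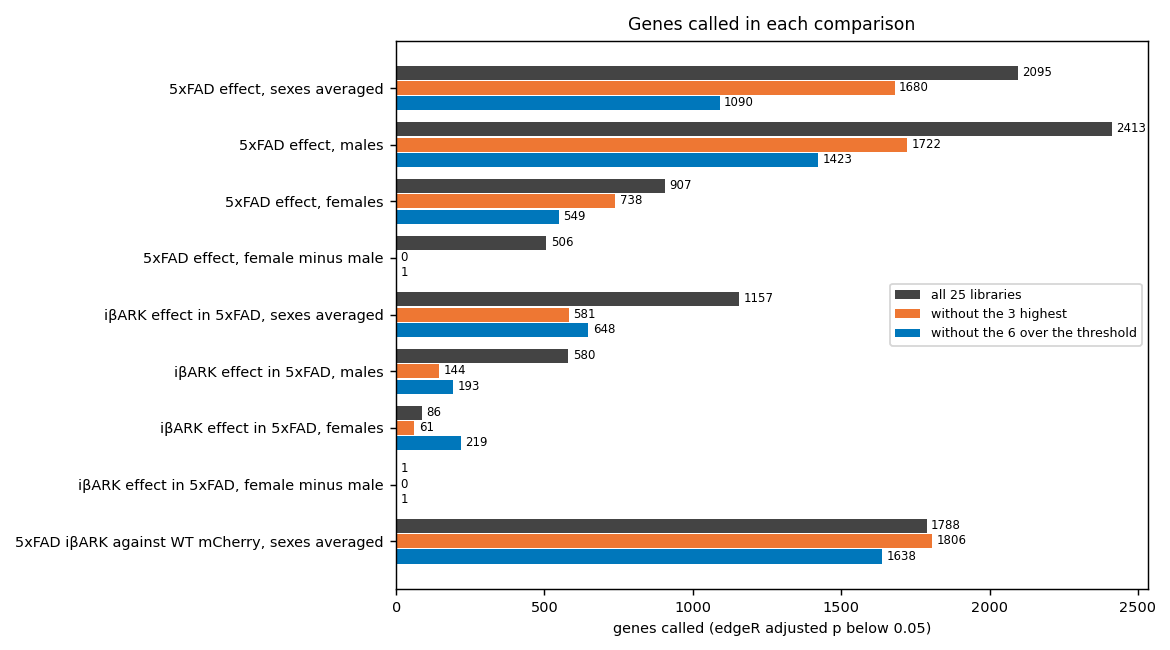
Number of genes called by edgeR (adjusted p below 0.05) in each of the 9 comparisons, with all 25 libraries (grey), without the 3 highest (orange) and without the 6 over the threshold (blue). The 5xFAD count with sexes averaged goes from 2095 to 1090 without the 6, and the sex difference from 506 to 1.

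Among the 1066 genes called for 5xFAD in all libraries and not without the 6, those with the smallest p were named by rule. They were Lrch1 (0.30 ± 0.06), Slc7a11, the cystine transporter (-0.63 ± 0.13), Plod3, a collagen lysyl hydroxylase (0.35 ± 0.07), Enpp3 (-1.39 ± 0.30), Slc13a4, a sulphate transporter (-1.06 ± 0.23), Zfp266 (-0.23 ± 0.05), Gli3, a hedgehog pathway factor (-0.48 ± 0.11), Polr3c (0.24 ± 0.05), Grip1, a glutamate receptor scaffold (-0.25 ± 0.06) and Ypel2 (-0.33 ± 0.07), each log2 ± SE. Without the 6 libraries the edgeR adjusted p was 0.05 to 0.079, and the signs were as before, with Lrch1 at 0.26, Plod3 at 0.32, Polr3c at 0.22 and Slc13a4 at -0.63. Without only the 3 highest libraries all 10 passed (edgeR adjusted p from 0.014 to 0.028). Across the 25 libraries, the median Spearman rho with the index was 0.36 for the 626 lost genes that had been lower, 0.33 for the 214 lower genes that were kept, and -0.27 and -0.33 for the 440 lost and 815 kept higher genes, beside 0.01 over all genes. The rank likeness to the index was thus about as strong for kept as for lost genes.

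The genes most like the index over the 25 libraries, by Spearman rho among 14473 genes with a mean of at least 1 CPM outside all lists, were Apool (0.90), Tpst1 (0.83), Pik3ip1, Dlk1, Ecel1 and Baiap3 (0.81 each), Scml4 and Tppp3 (0.79 each), and Hap1 and Acot1 (0.78 each). Most of the 25 ranks come from libraries with little striatal signal. Within those 19 libraries, which also took part in the choice of these genes, rho was 0.91 for Apool and 0.63 for Acot1. Apool itself ran from 1.64 to 3.17 CPM. Among the 9 genes, rho between pairs ran from 0.38 (Ppp1r1b with Isl1) to 0.80 (Drd2 with Rgs9).

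A second description, chosen after seeing the data, took the smallest fold over the median of the 19 libraries in male WT 1, male iβARK 2 and female WT 2. Of 14473 genes, 17 exceeded 2 in all 3. Lrrc10b led with a smallest fold of 10.4, at 37.2, 14.4 and 10.3 CPM in the 3 libraries against 0.99 CPM. It was followed by Igkc and Igkv5-39, immunoglobulin light chain genes of plasma cells, and then by Myoc, Cd163, Igf2, Ccdc187, Col3a1, Mrc1 and Dlk1. Igkc reached 269 CPM in male iβARK 2, 46.9 in female iβARK 2 and 41.7 in female iβARK 3, against 1.31 in male WT 1 and 1.92 in female WT 2. Cd163 and Mrc1 are genes of border macrophages and Myoc, Igf2 and Col3a1 of meningeal and vascular cells, and their levels were raised in the same 3 libraries as the striatal genes. No test was made on genes chosen this way.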

How the data were processed

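PolyA RNA of mPFC was sequenced in 25 libraries (RNeasy extraction, RIN above 7, a directional kit, Illumina NovaSeq), per the labels' protocols. The authors deposited 1 table of whole-number counts by gene symbol. Its making involved HISAT2 2.2.1, Bowtie2 2.4.5, RSEM, fastp 0.23.2 and the GRCm38 build, and DESeq2 1.32.0 is listed too, per the submitters' processing notes. Their roles, the annotation and the strand setting were not given in the sources used here. Even values outnumber odd ones at the low end (52320 values of 2 against 35698 of 1), so mates of a pair may be counted separately and counting error is larger than the counts imply. No 2 libraries held identical values.

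Low genes were removed with filterByExpr (count 10, total 15, 6 groups). Tests used edgeR 4.0.16 (with limma 3.58.1, in R 4.3.3), by the quasi-likelihood F test, with TMM, 6 group means, 19 residual degrees of freedom and Benjamini-Hochberg adjustment over all 20971 genes of each of 9 comparisons, at 0.05. The test was also run on simulated counts, drawn independently for each gene and with no library given extra tissue. That run does not show how the test behaves with such libraries. Each SE printed is the absolute log2 difference divided by the square root of the F statistic. It is thus derived from the test and is rough for genes with many counts of 0. Alternatives were DESeq2 size factors, the DESeq2 Wald test (DESeq2 1.42.0), no filter, a replicate block, each library left out in turn, the 6 libraries over the index threshold left out, and the mean log2 CPM of the 24-gene list as a covariate. Leaving out only the 3 highest was chosen after seeing the data. The index was also computed with DESeq2 size factors and a prior count of 0.5.

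Gene positions came from GENCODE M21, promoters from RefSeq. The members and lists were chosen with earlier results of these data known. Named genes are the 9, up to 6 of each list with the highest mean CPM, the 10 most like the index, and the 10 with the smallest p among those no longer called without the 6 libraries. List genes that passed the test, Tac1, Pdyn, and genes raised in the 3 highest libraries were named after their values were seen. Predicted gene models were not named, and some list genes are not reported here.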

Additional observations from a re-analysis of the deposited data

Results flagged for a closer look

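A library was listed here when its gap to its nearest neighbour took up most of its group's range (Dixon's critical value at 95%, groups of 4 or 5 libraries). Of 50 sets of values tested, 18 passed. Chance passes about 1 in 20 independent sets, but these sets share libraries and the genes were chosen with their levels known, so the 18 cannot be read against that share. In male WT, replicate 1 stood out for Drd2 (73.3 CPM, next 4.59), Adora2a (64.9, next 3.06), Penk (177, next 17.4), Ppp1r1b (313, next 80.5), Six3 (15.1, next 0.252), Isl1 (1.68, next 0.219), Rgs9 (109, next 28.2), Gpr6 (19.7, next 0.589) and the index (5.52, next 1.92). In female WT, replicate 2 stood out for Adora2a (23.6 CPM, next 6.17), Penk (108, next 21.7), Six3 (6.82, next 0.851), Rgs9 (46.5, next 28.0) and Gpr6 (8.37, next 2.17).

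Smaller gaps were found among 5xFAD-mCherry libraries. Male replicate 3 stood out for Penk (17.4 CPM, next 12.6), female replicate 1 was low for Ppp1r1b (74.7, next 83.9), and female replicate 3 was high for Six3 (0.572, next 0.12) and for the index (1.97, next 1.49). These last values lie within the range of the WT libraries under the threshold for Penk and Ppp1r1b. The male iβARK group, with 3 libraries, was not tested this way, so its replicate 2 could not be listed.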

How the results depend on the processing

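With no pairing named in the labels, replicate numbers were checked by the correlation of library deviations from group means. Over 56 same-numbered pairs the median r was 0 (-0.21 to 0.20), and 5 exceeded 0.1. Over 203 pairs with different numbers it was also 0 (-0.31 to 0.35), and 19 exceeded 0.1. Of 25 libraries, 2 were most like one of their own number. Same-numbered libraries were thus not more alike by this measure, and the main fits treat the numbers as names only. The measure does not show how the libraries were handled. With the replicate block, the 9 genes' calls were 2 of 9 for 5xFAD with sexes averaged and 0 in males, and genes called were 253 for the sex difference in the 5xFAD effect and 644 (sexes averaged), 322 (males), 15 (females) and 0 (sex difference) for iβARK. It left the other comparisons within 1.5 times. DESeq2 size factors kept the direction of all 45 member values in the 5 comparisons whose member values are given, and the count of libraries over the index threshold stayed 6 with them and with a prior count of 0.5.

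Without the 6 libraries, genes called were 1090, 1423 and 549 for 5xFAD (sexes averaged, males, females), 1 for its sex difference, and 648, 193 and 219 for iβARK (sexes averaged, males, females), and 0 of the 9 genes were called in 5xFAD with sexes averaged and in males. Signs changed for 5xFAD in Ppp1r1b (0.14 averaged, 0.26 males, 0.01 females), Six3 (0.12, females), Penk (0.21, males) and Gpr6 (0.28, males), for iβARK in Drd1 (-0.01), Drd2 (-0.02), Penk (-0.14), Ppp1r1b (-0.27), Six3 (-2.08) and Gpr6 (-0.44), and for iβARK against WT in Adora2a (0.27) and Isl1 (0.47). Without only the 3 highest, genes called were 0 for the 5xFAD sex difference and 581, 144 and 0 for iβARK (sexes averaged, males, sex difference), and 0, 0 and 1 of the 9 genes were called for 5xFAD averaged, 5xFAD males and iβARK averaged. Signs changed for 5xFAD in Ppp1r1b (0.12 averaged, 0.27 males), Penk (0.22, males) and Gpr6 (0.29, males), for iβARK in Ppp1r1b (-0.12) and Six3 (-0.38), and for iβARK against WT in Drd2 (0.13), Adora2a (0.53), Penk (0.16), Gpr6 (0.12) and Isl1 (0.08). With the covariate, genes called were 1197 for 5xFAD averaged and 662, 348 and 0 for iβARK (averaged, males, sex difference), and 0 of the 9 genes were called for 5xFAD averaged or males. Signs changed for 5xFAD in Penk (0.17 averaged, 0.36 males), Ppp1r1b (0.26 averaged, 0.28 males, 0.23 females), Gpr6 (0.02 averaged, 0.61 males) and Drd2 (0.01, females), for iβARK in Drd1 (-0.04), Penk (-0.29) and Ppp1r1b (-0.34), and for iβARK against WT in Drd2 (0.08), Adora2a (0.29), Six3 (0.68) and Gpr6 (0.03).

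The DESeq2 Wald test called 7 of the 9 genes for 5xFAD in males, 1 in females and 1 for iβARK averaged, and 1112 genes for the 5xFAD sex difference and 1062, 170 and 23 for iβARK in males, in females and for their difference. With no filter, 4 of the 9 were called for 5xFAD in males, and 273 genes for the 5xFAD sex difference and 158 for iβARK in females.

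Leaving out 1 library at a time gave 1 to 8 of the 9 genes for 5xFAD averaged, 0 to 6 in males, 0 to 1 in females and 0 to 1 for iβARK averaged. Genes called ran from 1059 to 3031 for 5xFAD males, 15 to 1148 for the sex difference, 509 to 2206 for iβARK averaged, 58 to 1753 in males, 1 to 144 in females and 0 to 14 for their difference. Signs changed in such fits for 5xFAD averaged in Ppp1r1b (-0.57 to 0.02), for 5xFAD males in Penk (-2.35 to 0.22), Ppp1r1b (-0.93 to 0.27) and Gpr6 (-3.46 to 0.29), for iβARK in Ppp1r1b (-0.13 to 0.28) and Six3 (-0.38 to 5.37), and for iβARK against WT in Drd2 (-1.48 to 0.74), Adora2a (-1.37 to 0.73), Penk (-1.45 to 0.16), Ppp1r1b (-0.57 to 0.15), Six3 (-5.80 to 1.67), Isl1 (-1.40 to 0.02), Rgs9 (-0.67 to 0.10) and Gpr6 (-2.11 to 0.82). Fits with fewer libraries have fewer degrees of freedom, and otherwise the cause was not tested. At this depth Six3 and Isl1 lie at or under 3 counts in many libraries, which limits their fold changes.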
